A study of Mus musculus with 2 samples.

Results

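The genes described here are 10 genes of the integrated stress response, chosen by name from the 24091 genes in the deposited table. They are Atf4, Atf5, Ddit3, Ddit4, Chac1, Trib3, Asns, Psat1, Phgdh, and Ppp1r15a. All 10 were present. Polyadenylated RNA was sequenced in 2 libraries from C57BL/6 mice, 1 sham-irradiated (labelled no radiation, called the sham library) and 1 from mice given pelvic radiation, and the labels describe both as primary adipocytes from the gonadal fat pad. The radiation is labelled as 7.5 Gy and 5 days, without stating whether the dose was daily or in total, and the fat was taken 2 months later. Both libraries came from collagenase-digested fat whose floating cells were kept for 3 days in culture, and both sample titles also name PBS, without saying what received it. The sources used here do not give the age, the sex, or the number of mice behind a library. As each condition had a single library, differences could not be tested, and no p-value is given.

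The integrated stress response begins when a kinase phosphorylates the translation initiation factor eIF2, which slows general protein synthesis while ATF4, whose mRNA carries upstream reading frames, is translated more. ATF4 is a bZIP transcription factor that binds C/EBP-ATF response elements, often with a partner of the C/EBP family, and raises genes for amino acid synthesis, amino acid uptake, and tRNA charging. CHOP, the product of Ddit3, is a further bZIP factor of the response, and GADD34, the product of Ppp1r15a, brings protein phosphatase 1 to eIF2 and ends the signal. Because ATF4 is controlled largely at translation, the level of Atf4 mRNA is not a measure of its protein.

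Levels are in FPKM, the fragments on a gene per kilobase of its length and per 1000000 fragments of the library. The difference of a gene is its log2(FPKM + 0.1) after radiation minus that in the sham library, and a fold is the same difference on a linear scale. A counting interval is the exact 95% binomial interval of the log2 ratio of fragments, and it covers counting error only, not the spread between mice or cultures, which was not measured. The depth recovered from the values was 30600000 fragments in the sham library and 35000000 in the irradiated library. Across the 11253 genes that reached an FPKM of 1 in either library, the median difference was 0.02, and the middle 90 percent of differences ran from -0.27 to 0.46. The defining adipocyte genes Adipoq and Plin1 stayed below an FPKM of 0.5 in both libraries, which goes against the label of the cells as primary adipocytes.

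The 5′ flanks of 4 of the genes are printed because they hold a match to an element that bZIP factors of this response are known to bind. The windows come from RefSeq on GRCm38.p6 and run from 250 bases before each annotated start to 50 bases after it, and all 10 genes had at least 1 window, 12 windows in all. Positions count from the annotated start, with -1 as the last base before it. The core of the C/EBP-ATF response element was searched on both strands as TGATGNAA, where N is any base. It occurred in 3 of the 12 windows, those of Asns, Chac1, and Trib3, and in 3.97% of all 32851 windows in the table. The cyclic AMP response element, TGACGTCA, which reads the same on both strands, occurred in 1 of the 12 windows, that of Ppp1r15a, and in 1.79% of all windows. Capitals mark the matches, and each sequence is given on the strand of its gene. For Asns the 250 bases before the start are chr6:7693210-7693459 on the minus strand, with the match at -23 to -16. For Chac1 they are chr2:119350992-119351241 on the plus strand, with the match on the opposite strand at -193 to -186. For Ppp1r15a they are chr7:45526269-45526518 on the minus strand, with the match at -12 to -5. The Trib3 match lies after the start, at 15 to 22 and on the opposite strand, and 30 bases around it are shown from chr2:152344028-152344057 on the minus strand. For Asns the deposited gene coordinates reach only 7693182, short of the RefSeq start of its window, so positions counted from there would differ.
Asns: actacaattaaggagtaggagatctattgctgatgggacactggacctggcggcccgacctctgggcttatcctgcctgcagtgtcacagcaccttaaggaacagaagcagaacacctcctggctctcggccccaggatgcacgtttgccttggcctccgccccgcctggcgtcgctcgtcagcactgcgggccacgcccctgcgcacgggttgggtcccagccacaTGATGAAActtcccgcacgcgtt
Chac1: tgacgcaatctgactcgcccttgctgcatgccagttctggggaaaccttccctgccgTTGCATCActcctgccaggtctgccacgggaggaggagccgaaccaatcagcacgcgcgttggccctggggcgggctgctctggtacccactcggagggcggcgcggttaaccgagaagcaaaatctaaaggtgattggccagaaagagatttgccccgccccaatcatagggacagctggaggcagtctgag
Ppp1r15a: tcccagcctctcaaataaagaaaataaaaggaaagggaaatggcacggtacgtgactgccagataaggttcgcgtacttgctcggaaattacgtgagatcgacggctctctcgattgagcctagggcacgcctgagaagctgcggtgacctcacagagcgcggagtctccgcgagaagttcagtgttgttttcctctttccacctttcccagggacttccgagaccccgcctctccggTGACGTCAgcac
Trib3: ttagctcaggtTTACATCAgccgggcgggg
A match of letters is a description and does not show that a factor was bound there in these cells.

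Of the 10 genes, 7 were lower in the irradiated library with a counting interval below 0, namely Trib3, Psat1, Chac1, Asns, Atf4, Phgdh, and Atf5, with differences from -0.56 to -0.21. Among all 11253 genes, 17.4% had an interval below 0 and 23.8% had one above 0. The median FPKM in the irradiated library was 44.9 for the 10 genes and 8.59 for all 11253, and intervals narrow as the level rises, so the 7 of 10 and the 17.4% are not directly comparable. The counting interval of the other 3, Ddit3, Ddit4, and Ppp1r15a, included 0, and none lay above 0. The median difference of the 10 genes was -0.255, beside 0.02 for all 11253 genes. None of the 10 reached a difference of 1 in either direction, which 1.16% of all genes did, and only Trib3 reached -0.5, which 1.44% of all genes did. On the linear scale the 7 lower genes stood between 0.678-fold and 0.865-fold. In RNA from mixed cells, fewer cells of a type and less RNA per cell cannot be told apart.

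**Figure D1:**
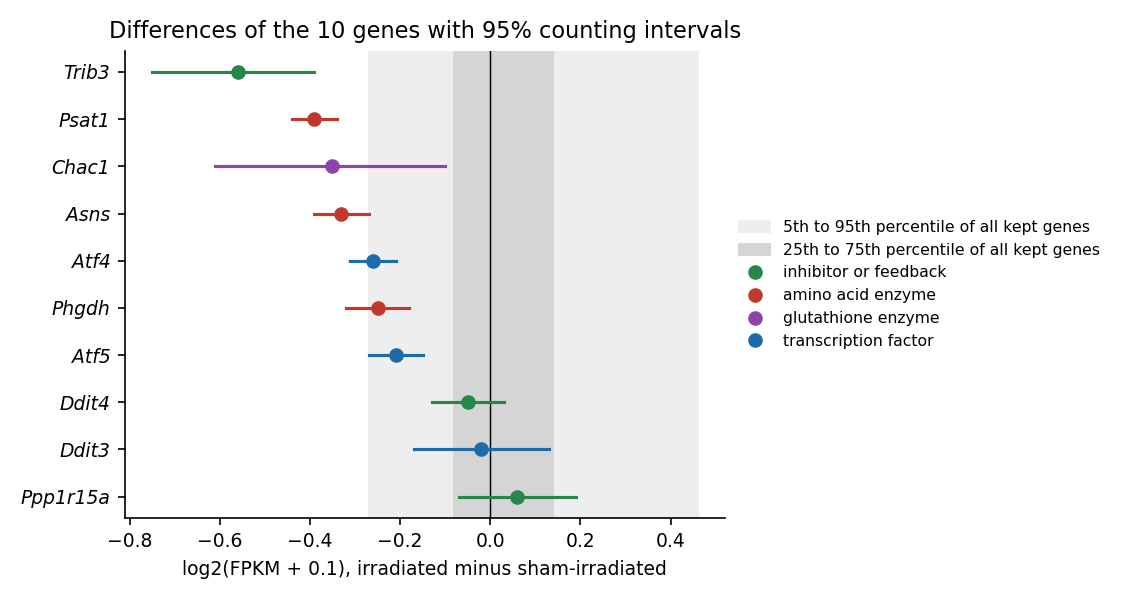
Differences of the 10 genes on the log2(FPKM + 0.1) scale (horizontal axis), irradiated minus sham-irradiated, with lines for 95% counting intervals and colours for the role of each gene. Grey bands show where the middle of all 11253 genes lay, the wide one from -0.27 to 0.46. Trib3, Psat1, Chac1, and Asns sit left of the wide band, and the lines of Ddit4, Ddit3, and Ppp1r15a cross 0.

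Atf4, the central transcription factor of the response, lies on chromosome 15 from 80255184 to 80257545 and was the most abundant of the 10 genes in both libraries. Its FPKM was 148.0 in the sham library, on 7810 fragments, and 123.5 in the irradiated library, on 7461 fragments. It was thus lower in the irradiated library, at 0.835-fold, with a difference of -0.26 and a counting interval from -0.31 to -0.21. Its level was above that of 97.2% of the 11253 genes in the sham library and of 96.5% in the irradiated library, so Atf4 mRNA was abundant in both cultures. Only 5.61% of all genes had a difference of -0.26 or lower.

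Atf5, a related bZIP factor that is also under translational control and is known for the mitochondrial stress response, lies on chromosome 7 from 44812256 to 44816658. Its FPKM was 70.42 and 60.87 in the sham and irradiated libraries, a difference of -0.21 (interval -0.27 to -0.15), the smallest among the 7 lower genes. A stretch of 571 bases at its 5′ end overlaps Nup62 on the other strand, whose FPKM was 16.2 and 15.7. Gm21948, with an FPKM of 0.0127 and 0.0224, also overlaps it by 571 bases on the other strand. The library preparation was stranded, but the sources used here do not say whether counting used the strand.

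Ddit3 encodes CHOP, a factor tied to cell death under prolonged stress. It lies on chromosome 10 from 127290793 to 127296288, and its FPKM was 26.07 in the sham library and 25.71 in the irradiated library. The difference of -0.02 had a counting interval from -0.17 to 0.13, on 691 and 780 fragments, so no difference was detectable at this depth. Its last 68 bases overlap the tRNA synthetase gene Mars on the other strand, which had an FPKM of 35.4 and 33.3.

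**Figure D2:**
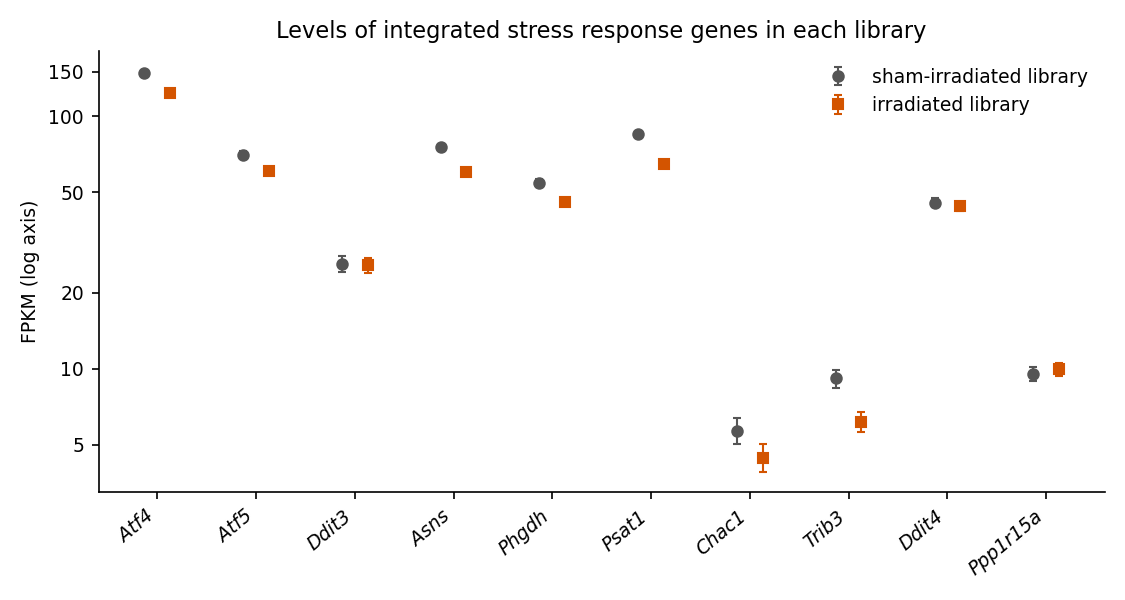
FPKM (vertical log axis) of each of the 10 genes in the sham library (grey circles) and the irradiated library (orange squares), with exact 95% Poisson intervals of the fragment counts. Atf4 was highest at 148.0 and 123.5, and Chac1 was lowest at 5.676 and 4.432. For Ddit3, Ddit4, and Ppp1r15a, the sham and irradiated symbols of the same gene lie close together.

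The enzymes of amino acid synthesis were lower together. Asparagine synthetase, encoded by Asns on chromosome 6 from 7675171 to 7693182, is a classical ATF4 target and holds a match to the response element. Its FPKM was 75.48 in the sham library and 60.03 in the irradiated library, a difference of -0.33 with an interval from -0.39 to -0.27. Only 3.42% of all genes were at or below this difference.

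Phgdh and Psat1 encode the opening and the following enzyme of serine synthesis from a glycolytic intermediate. Phgdh, on chromosome 3 from 98313171 to 98339969, stood at an FPKM of 54.47 and 45.79 in the sham and irradiated libraries, a difference of -0.25 (interval -0.32 to -0.18). Psat1, on chromosome 19 from 15905123 to 15925059, had 84.94 and 64.79, a difference of -0.39 (interval -0.44 to -0.34). The counting intervals of these 2 genes do not overlap. A processed pseudogene of Phgdh is annotated in GENCODE, and how fragments shared with it were counted is not stated. Psat1 had 7180 and 6267 fragments, the most of the enzymes among the 10 genes.

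Chac1, an enzyme that breaks down glutathione, lies on chromosome 2 from 119351242 to 119354327 and had the lowest level of the 10 genes. Its FPKM was 5.676 on 272 fragments in the sham library and 4.432 on 243 fragments in the irradiated library. The difference of -0.35 had the widest interval of the list, from -0.61 to -0.10.

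Trib3 showed the largest difference among the 10 genes. It encodes a pseudokinase that is induced by ATF4 and CHOP and restrains ATF4 activity, and it lies on chromosome 2 from 152337425 to 152344060. Its FPKM was 9.154 on 573 fragments in the sham library and 6.177 on 442 fragments in the irradiated library. The difference of -0.56 corresponds to 0.678-fold, its interval ran from -0.75 to -0.39, and 1.14% of all genes were at or below it.

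Ddit4 and Ppp1r15a, a pair of stress-induced brakes, differed little. Ddit4 encodes REDD1, an inhibitor of the growth kinase mTORC1, and lies on chromosome 10 from 59949675 to 59951770. Its FPKM was 45.47 and 43.92 in the sham and irradiated libraries, a difference of -0.05 (interval -0.13 to 0.03). Ppp1r15a, on chromosome 7 from 45522917 to 45526268, had 9.546 and 9.956, a difference of 0.06 (interval -0.07 to 0.19). It was the only one of the 10 with a higher value in the irradiated library, and that difference was within counting error. A stretch of 716 bases of Ppp1r15a overlaps Tulp2 on the other strand, whose FPKM was 0.0 and 0.0207.

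The order of the 10 levels was nearly the same in both libraries. In the sham library it ran Atf4, Psat1, Asns, Atf5, Phgdh, Ddit4, Ddit3, Ppp1r15a, Trib3, and Chac1, and of these neighbours only the Poisson intervals of Ppp1r15a and Trib3 overlapped. In the irradiated library Atf5 stood before Asns, at 60.87 and 60.03, with overlapping intervals, and those of Phgdh and Ddit4, at 45.79 and 43.92, overlapped as well. Ppp1r15a and Trib3, which could not be separated in the sham library, stood apart at 9.956 and 6.177 in the irradiated library.

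Other genes of amino acid metabolism, of which ATF4 is known to raise some but not all, were described from lists chosen by function. These lists were chosen with earlier results of these data known. Of 14 further serine, one-carbon, and amino acid enzymes, 13 reached an FPKM of 1 in either library. In 10 of these the counting interval lay below 0 and in 1 above 0, and their median difference was -0.27. Aldh1l2, a mitochondrial folate enzyme, had the lowest difference of the list at -0.67, with an FPKM of 29.55 and 18.54 in the sham and irradiated libraries. Got1, the cytosolic aspartate aminotransferase, had the highest at 0.16. Cbs, named after its value was seen, had an FPKM of 0.2511 and 0.2536 and was left out of the counts as low. For the counts of this and every later list, the shares among all 11253 genes were 17.4% below 0 and 23.8% above 0. Counts and shares are not directly comparable where the levels of a list differ from those of all genes.

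Individual steps of these pathways are given with genes named after their values were seen. Psph, which completes serine synthesis after Phgdh and Psat1, had a difference of -0.26, so all 3 enzymes of that route had an interval below 0. The mitochondrial one-carbon enzymes Shmt2, Mthfd2, and Mthfd1l had differences of -0.45, -0.27, and -0.13, with intervals below 0 for each. Their cytosolic counterparts Shmt1 and Mthfd1 had differences of -0.17 and 0.03, and both intervals included 0. The difference between the mitochondrial and cytosolic enzymes was not tested. Pycr1 and Aldh18a1, which make proline, were at -0.56 and -0.31. Pck2, the mitochondrial phosphoenolpyruvate carboxykinase, was at -0.62, and Cth, which makes cysteine from cystathionine, was at -0.63.

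**Figure D3:**
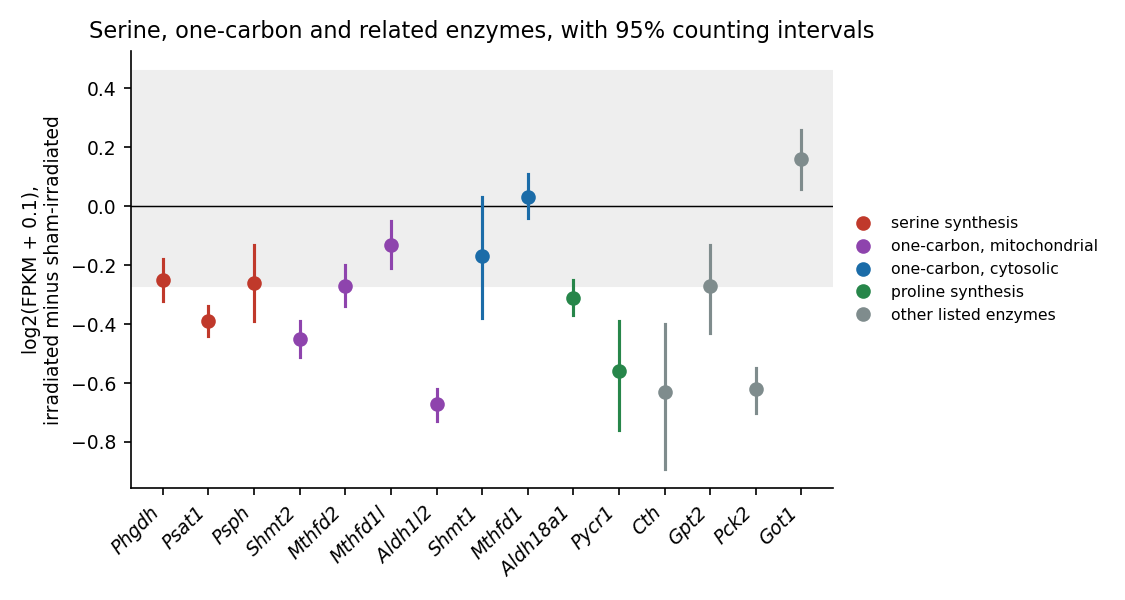
Differences of serine, one-carbon, and related enzymes on the log2(FPKM + 0.1) scale (vertical axis), irradiated minus sham-irradiated, with lines for 95% counting intervals, colours for the pathway, and a grey band from -0.27 to 0.46 for the middle 90 percent of all genes. Psat1 (-0.39), Shmt2 (-0.45), and Aldh1l2 (-0.67) lie below the band, whereas Mthfd1 (0.03) and Got1 (0.16) lie within it.

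Amino acid transporters were mostly lower as well. Of 11 listed, 10 reached an FPKM of 1, of which 8 had an interval below 0 and 1 above, with a median difference of -0.255. Slc43a1, a carrier of large neutral amino acids, had the lowest difference at -0.53, from an FPKM of 3.818 to 2.613. Slc38a1, a glutamine carrier, had the highest at 0.24, from 1.859 to 2.213. The following 4 were named after their values were seen. Slc7a5, which imports leucine as the partner of Slc3a2, was at -0.32, while Slc3a2 itself was at -0.01 (interval -0.06 to 0.04). Slc7a11, the cystine importer that feeds glutathione synthesis, was at -0.25, and Slc38a2, a glutamine carrier induced when amino acids are scarce, was at -0.26.

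The cytosolic aminoacyl-tRNA synthetases, which charge tRNAs with amino acids, had smaller differences. All 20 listed genes reached an FPKM of 1, 12 had an interval below 0 and none above, and the median difference was -0.135. Gars, for glycine, had the lowest difference at -0.31, from an FPKM of 163.0 to 131.5, and Qars, for glutamine, the highest at 0.05, from 23.65 to 24.49. A list of 17 mitochondrial synthetases was added after these values were seen, since most of them are not known as ATF4 targets. Of the 16 of them that reached an FPKM of 1, 1 had an interval below 0 and 1 above, and the median difference was -0.005. Among these 16, Lars2 had the lowest difference at -0.52, from an unusually high FPKM for this list of 89.16 to 62.15. It also had the only interval below 0 among the 16. Ears2, named after its value was seen, was left out of the counts with an FPKM of 0.9943 and 0.6684, just under 1. Its difference was -0.51, with an interval from -0.89 to -0.26. Nars2, which is also in the list of other ATF4 and CHOP targets, had the highest difference at 0.24. The mitochondrial genes had fewer fragments, with a median FPKM of 3.41 against 49.6 for the cytosolic ones in the sham library, so their intervals are wider and the 2 counts of intervals are not comparable.

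**Figure D4:**
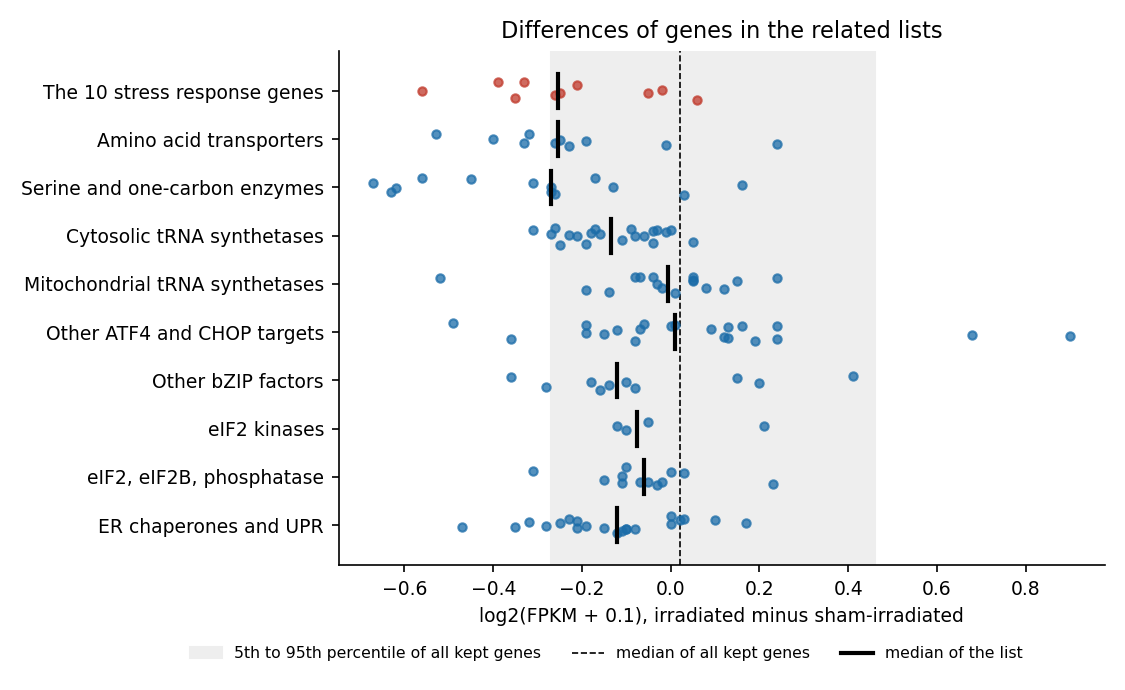
Differences of genes in the 10 lists (rows) on the log2(FPKM + 0.1) scale (horizontal axis), irradiated minus sham-irradiated, with 1 point per gene that reached an FPKM of 1 in either library, placed at random heights within its row. Black bars mark list medians, -0.255 for the stress response genes and for the transporters, -0.27 for serine and one-carbon enzymes, and 0.01 for other ATF4 and CHOP targets, where Gdf15 and Tnfrsf10b lie far to the right.

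Other ATF4 and CHOP targets did not share this direction. Of 24 listed, 21 reached an FPKM of 1, of which 9 had an interval above 0 and 5 below, with a median difference of 0.01, which became -0.01 when all differences were centred on their median. Gdf15, a secreted stress cytokine, had the highest difference at 0.90, from an FPKM of 2.182 on 72 fragments to 4.157 on 157 fragments, with an interval from 0.52 to 1.35. Stc2, a secreted glycoprotein, had the lowest at -0.49. Tnfrsf10b, a death receptor, and Sesn2, a leucine sensor that restrains mTORC1, were named after their values were seen and stood at 0.68 and 0.24. Gdf15, Tnfrsf10b, and Sesn2 are among the 9 with an interval above 0 and are known targets of p53 as well as of ATF4 or CHOP. Also named after their values were seen, Nars2 and Sqstm1 were at 0.24 and 0.19, with intervals above 0. Bbc3 and Gadd45a, at -0.06 and 0.13, are known targets of p53 too, and their intervals included 0. Of 20 listed p53 targets, which include Sesn2 but not Bbc3 or Gadd45a, 16 had an interval above 0 and 2 below. The median difference of the 20 was 0.565, from Sesn1 at -0.21 to Perp at 1.40. The p53 target Cdkn1a, named after its value was seen, was at 1.27. Whether the values of Gdf15, Tnfrsf10b, and Sesn2 move with p53 or with the stress response was not tested.

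Upstream of ATF4, the eIF2 kinases were present in both libraries. Eif2ak3, or PERK, which senses stress in the endoplasmic reticulum, had an FPKM of 8.838 in the sham library and 8.125 in the irradiated library. Its difference was -0.12 (interval -0.23 to -0.02). Eif2ak1, or HRI, which senses heme and mitochondrial stress, had 19.33 and 18.03, a difference of -0.10 (interval -0.19 to -0.01). The upper limit for Eif2ak1 is as close to 0 as the 0.01 that rounding can add. Eif2ak4, or GCN2, which senses uncharged tRNA, had 2.91 and 2.808, and the interval of its difference of -0.05 ran from -0.21 to 0.10. Eif2ak2, or PKR, the kinase that senses double-stranded RNA and is itself induced by interferon, was the only one that was higher, with 13.17 and 15.25, a difference of 0.21 (interval 0.12 to 0.30).

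Of 12 subunits of eIF2, of its exchange factor eIF2B, and of the eIF2 phosphatases, 3 had an interval below 0 and 1 above, with a median difference of -0.06. The lowest was Ppp1r15b, the constitutive counterpart of Ppp1r15a, at -0.31 (interval -0.36 to -0.26), from an FPKM of 34.44 to 27.76. Eif2b3 was highest at 0.23. Of the paired eIF2 phosphatase adaptors, the constitutive one was therefore lower and the inducible one was within counting error.

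Of 10 other bZIP or bZIP-binding stress factors, 5 had an interval below 0 and 2 above, with a median difference of -0.12. Batf was lowest at -0.36 on only 39 and 34 fragments, with an interval from -1.10 to 0.31. Atf3, a stress-induced factor that ATF4 can raise, was highest at 0.41, from an FPKM of 6.581 to 8.777, with an interval from 0.24 to 0.59. Cebpb and Cebpg, partners of ATF4 at its response elements that were named after their values were seen, were at -0.18 and -0.16, both with intervals below 0.

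Endoplasmic reticulum chaperones and other genes of the unfolded protein response also had more intervals below 0 than above. The list includes the genes of the sensors ATF6 and IRE1, whose branches run in parallel to ATF4. Of 22 listed, 21 reached an FPKM of 1, 14 had an interval below 0 and 2 above, and the median difference was -0.12. The median FPKM of the 22 in the sham library was 60.0, against 8.3 for all 11253 genes. These counts are therefore not directly comparable with the 17.4% and 23.8% of all genes with intervals below and above 0. Sdf2l1, a chaperone cofactor, was lowest at -0.47, from an FPKM of 29.76 to 21.46, and Ern1, which encodes IRE1, was highest at 0.17. The 2 intervals above 0 were those of Ern1 and of Atf6, which was named after its value was seen and stood at 0.10. Hspa5, the chaperone BiP, was named after its value was seen and had an FPKM of 814.5 and 639.0, a difference of -0.35.

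Marker genes were used to check the labelled cell type and the makeup of the cultures. Of 14 mature adipocyte markers, 10 stayed below an FPKM of 1 in both libraries, and of the other 4 the interval was below 0 for 1 and above for none, from Dgat2 at -0.37 to Pnpla2 at 0.17. The summed FPKM of all 14 was 115.1 in the sham library and 115.3 in the irradiated library. Adipoq and Plin1, which define adipocytes, had an FPKM of 0.1333 and 0.2536 in the sham library and 0.2322 and 0.4783 in the irradiated library. Adig, a further marker named after its value was seen, had no fragments in either. Fabp4, which made up most of that sum, was at 96.91 in both. Of 12 fibroblast and progenitor markers, 5 had an interval below 0 and 4 above, from Pi16 at -0.55 to Dpp4 at 0.44. The summed FPKM of the 12 was 4907 and 4090. Most of that sum came from collagen genes named after their values were seen. Col1a1 was at 1937 and 1428, Col1a2 at 770.6 and 572.0, and Col3a1 at 873.0 and 694.5. Dcn, at 548.6 and 552.5, and Fn1, at 515.5 and 592.1, were likewise named afterwards and were not lower. Of 11 macrophage markers that reached an FPKM of 1, 8 had an interval above 0 and 1 below. They ran from Lyz2 at -0.11 to C1qa and C1qc at 0.80. The summed FPKM over all 12 was 614.4 and 654.5, mostly from Lyz2 at 442.5 and 410.0, which was the marker with an interval below 0. Of 9 mesothelial markers, 8 had an interval above 0 and 1 below, from Wt1 at -0.13 to Msln at 2.18, with sums of 35.42 and 51.14. Of 9 endothelial markers, 4 had an interval above 0 and none below, from Cldn5 at -0.09 to Emcn at 0.33, with sums of 50.34 and 55.19. None of the fibroblast, macrophage, mesothelial, or endothelial markers was without fragments. The part of these shifts in the values of the stress response genes was not tested.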

How the data were processed

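The members and gene lists were chosen with earlier results of these data known, and the list of mitochondrial tRNA synthetases was added after the values were seen. The values deposited by the authors are log2(FPKM + 0.1), given to 2 decimals for 24091 genes in 1 library per condition, with no further column of per-sample values. The submitters' processing notes name the build mm10. No aligner or counting tool is given in the sources used here. Of 23349 symbols shared with RefSeq on GRCm38.p6, 17741 matched in chromosome and in start or end, 9 of the 10 members among them.

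The added 0.1 was removed after the logarithm was undone. Library depth was the total at which FPKM times gene length was closest to whole fragments over genes with few fragments. All 3356 and 3506 such genes lay within 0.12 of a whole number, giving 30600000 and 35000000 fragments in the sham-irradiated and irradiated libraries, of which 86.8% and 86.9% were on listed genes. On a gene of 1 kb, 3 fragments, the limit for a gene with no fragments, correspond to an FPKM of 0.0981 and 0.0857. Rounding adds up to 0.01 to a difference and makes the fragments of abundant genes approximate. The recovery of depth and the counting intervals were tested on simulated data.

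Genes that reached an FPKM of 1 in either library entered the counts and medians. Differences on the log2(FPKM + 0.1) scale understate the change of low genes. Counting intervals are Clopper-Pearson intervals of fragments and treat PCR copies as independent molecules. The genes named were all 10 members, the eIF2 kinases, the highest and lowest difference in each other list, and Adipoq, Plin1, and Fabp4. Genes that overlap a member are also named, and others are stated as named after their values were seen. The paper that cites these data describes no RNA sequencing, so it gave no processing details. The software was SciPy 1.17.1, pandas 2.3.3, and numpy 2.4.6 under Python 3.11.15, with matplotlib 3.10.9 for plots.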

Additional observations from a re-analysis of the deposited data

How the results depend on the processing

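No paired analysis was possible because there were no replicates to pair, and for the same reason none could be left out. The alternatives were log2(FPKM + 1), no pseudocount, scaling without the 100 most abundant genes, centring on the median, no filter, and a minimum FPKM of 5. Under these the median difference of the 10 genes lay between -0.275 and -0.252, and their mean was -0.236. Centring shifted all genes by -0.02 and scaling by -0.014, and 7 intervals lay below 0 in both cases, as well as when the intervals were widened by 0.01 for rounding, an alternative chosen after seeing the data. All 10 genes passed each filter. With a threshold of 0.5 in place of 1, 1 of the 10 genes was counted in place of 0. No difference of a member or eIF2 kinase left its counting interval or changed sign beyond it. The mesothelial median was 0.759 with log2(FPKM + 1), and no other list median left the binomial range of its ordered values, set at 95%. For the eIF2 kinases and the adipocyte markers, with 4 genes each, the range was the full span of values and covers less than 95%. These ranges are wide, so staying within them says little about stability. The median of glucocorticoid-induced genes changed sign, from 0.215 to -0.10, with a minimum FPKM of 5, which leaves fewer of its genes. Those of other ATF4 and CHOP targets and of adipocyte markers were near 0, at 0.01 and 0.015, and became -0.01 and -0.005 with centring. Depth limits Chac1 most among the 10, since its interval spans -0.61 to -0.10.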

Other observations

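Ddit4, whose difference of -0.05 had an interval that included 0, is known to be induced by low oxygen and by glucocorticoids as well as by ATF4 and p53, so genes of the first 2 inputs are given as values. Of 15 hypoxia-induced genes, 8 had a counting interval below 0 and 3 above, with a median difference of -0.06. P4ha2, a collagen prolyl hydroxylase subunit, was lowest at -0.45, from an FPKM of 56.0 to 40.97 in the sham-irradiated and irradiated libraries. Car9, a carbonic anhydrase that is a classical target of hypoxia-inducible factor, was highest at 1.40, from 0.4035 on 24 fragments to 1.229 on 84 fragments. Bnip3 and Pdk1, further targets named after their values were seen, were both at -0.43, so the listed genes did not share a direction.

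Of 11 glucocorticoid-induced genes, 10 reached an FPKM of 1, of which 5 had an interval above 0 and 4 below, with a median difference of 0.215, which became -0.10 with a minimum FPKM of 5. Cebpd was lowest at -0.28, and Pdk4, which slows the entry of pyruvate into mitochondrial metabolism, was highest at 0.74, from an FPKM of 0.928 to 1.617. Fkbp5 and Tsc22d3, the standard reporters of glucocorticoid action, were named after their values were seen and stood at -0.10 and 0.21.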
